A study of Mus musculus with 12 samples.

Results

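The genes described here are the histone genes of the chromosomal histone clusters, taken as every row of the deposited expression table whose gene name starts with Hist1h, Hist2h, Hist3h or Hist4h. The rule found 70 of 35275 genes: 6 for linker histone H1, 20 for H2A, 19 for H2B, 12 for H3 and 13 for H4. They were measured by RNA sequencing of mouse samples labelled liver, in 4 groups of 3 libraries. WTVC is wild type on vivarium chow, WTHF wild type on a high fat diet, KOVC the Hnf4a liver knockout on vivarium chow, and KOHF that knockout on the high fat diet. The labels name no strain, sex, age, length of feeding or Cre driver. The series title frames the question as what this diet and the loss of HNF4A, a nuclear receptor of hepatocytes, do to gene expression in the liver.

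Histones are the proteins that DNA is wound on: H2A, H2B, H3 and H4 form the core of the nucleosome, and H1 binds the linker between cores. Most genes of the clusters are replication-dependent: they lack introns, are transcribed in S phase, and give mRNAs that end in a conserved stem-loop bound by SLBP instead of in a poly(A) tail. Replacement histones such as H3.3 and H2A.Z are encoded elsewhere, as polyadenylated mRNAs made throughout the cell cycle, and supply cells that divide rarely, as adult hepatocytes do. Some cluster genes can also give longer, polyadenylated transcripts that read past the stem-loop. Whether these libraries were made by poly(A) selection or by ribosomal RNA depletion is not given in the sources used here.

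The stem-loop is the sequence that sets this family apart from other mRNAs, so its sites are shown for 5 genes that the values below turn on. A search of the GENCODE M21 transcripts (GRCm38) for the 5′ arm GGCNCT and the 3′ arm AGNGCC with the loop TTTN between them, on the transcript's strand, found it in 40 of the 68 members matched there and in 47 of all 55450 genes (0.0848%). Each site is printed 5′ to 3′, with the paired arms in capitals and the loop between them in lower case.
Hist1h1c: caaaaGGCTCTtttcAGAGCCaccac
Hist1h4h: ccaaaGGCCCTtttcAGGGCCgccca
Hist1h4i: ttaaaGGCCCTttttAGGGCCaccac
Hist1h2ae: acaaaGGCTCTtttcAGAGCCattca
Hist1h2ac: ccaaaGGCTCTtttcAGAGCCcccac
The 9 H4 genes with a site all had the 5′ arm GGCCCT, as in Hist1h4h and Hist1h4i, and the 31 H1, H2A, H2B and H3 genes with a site all had GGCTCT. The annotated transcript went on for 46 bases after the site in Hist1h4h, 151 in Hist1h2ae, 330 in Hist1h4i, 840 in Hist1h1c and 2010 in Hist1h2ac. No match says only that these letters are not in that annotated transcript.

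Promoters are shown for 4 genes because they carry, or lack, the elements that histone promoters are known for, and because Hist1h2ac shares its upstream region with Hist1h2bc, the member with the most reads. The sequences are from RefSeq (GRCm38.p6). They hold the 150 bases before each gene's start, 5′ to 3′ on the gene's strand, with 3 motifs in capitals. These are TATAAA, letters of a TATA box, the promoter element CCAAT and the octamer ATTTGCAT. Matches on the opposite strand are marked too and print as their reverse complement. Only exact letters are marked, at any distance from the start, so a marked TATAAA need not be a TATA box and variants stay in lower case.
Hist1h2ac, chr13:23683960-23684109, minus strand: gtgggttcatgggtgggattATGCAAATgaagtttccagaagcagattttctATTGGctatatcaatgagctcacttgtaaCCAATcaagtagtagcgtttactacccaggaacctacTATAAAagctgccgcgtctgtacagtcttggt
Hist1h1c, chr13:23738657-23738806, plus strand: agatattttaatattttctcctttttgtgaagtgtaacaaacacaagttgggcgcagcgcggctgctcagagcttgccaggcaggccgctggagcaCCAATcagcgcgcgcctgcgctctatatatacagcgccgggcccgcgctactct
Hist1h4h, chr13:23530894-23531043, plus strand: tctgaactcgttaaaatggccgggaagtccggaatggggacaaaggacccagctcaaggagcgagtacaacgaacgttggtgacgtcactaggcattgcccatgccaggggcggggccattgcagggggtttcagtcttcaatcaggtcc
Hist1h4i, chr13:22041363-22041512, minus strand: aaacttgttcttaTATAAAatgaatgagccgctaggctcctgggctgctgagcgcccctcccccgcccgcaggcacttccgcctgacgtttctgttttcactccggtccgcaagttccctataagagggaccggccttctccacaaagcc
In the 250 bases before the start, TATAAA was found for 48.3% of the 60 members with a RefSeq promoter, against 12.4% of 32851 promoters of all genes. CCAAT was found for 81.7% against 33.8%, and ATTTGCAT for 21.7% against 1.6%. CCAAT was present in all 6 H1, all 16 H2A and all 16 H2B promoters, in 8 of 10 for H3 and in 3 of 12 for H4. The octamer was found in 7 H2A and 6 H2B promoters and in none of the other families. A match is a description of the letters, not evidence that a factor bound there.

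Of these libraries, 2 stood apart, and the knockout label was not borne out by its transcript. Hnf4a itself stood at 98.8 to 158 FPKM (fragments scaled to the gene's length and the library's depth) across KOVC and KOHF. In wild type it was at 75.8 to 133 FPKM in 5 libraries and at 0.0973 FPKM in WTVC3. Genotype directions given here are thus between labels only. A whole-gene value does not measure the deletion itself. In WTVC3 the 5 hepatocyte markers summed to 28.5 FPKM, against 20112 to 61642 in the other 11 libraries. The 6 brown fat markers summed to 12927 FPKM there, against 5.64 to 120.5, and 37.5% of its reads were mitochondrial. WTVC2 had the second lowest hepatocyte sum, 20112 FPKM. Each test is therefore given with all 12 libraries and with the 10 that leave out WTVC2 and WTVC3, which leaves WTVC1 alone in its group, assumed to vary like the other groups. In bulk samples, fewer cells of a type and less RNA per cell cannot be told apart.

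Most cluster histone genes were at or near 0 in these samples. At least 1 read was seen for 56 of the 70 genes over the 12 libraries, which held 15705196 to 20311766 reads on genes each. Detection, taken as at least 5 reads in at least 3 libraries, was met by 19 genes: 2 of 6 for H1, 3 of 20 for H2A, 7 of 19 for H2B, 1 of 12 for H3 and 6 of 13 for H4. A mean of at least 0.5 FPKM, the filter for testing, was passed by 11. At the members' median length of 478 bases, 1 read was worth 0.103 to 0.133 FPKM. For the 14 genes without a read, the limit that a count of 0 allows (3 reads over the 12 libraries) was 0.00766 to 0.0396 FPKM. It covers counting error only. The H2A and H2B genes known for testis expression, Hist1h2aa and Hist1h2ba, were among those 14, and the testis linker histone gene Hist1h1t had 9 reads in all.

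The clusters differed in how many genes they showed. On chromosome 13 (coordinates of the table, GRCm38), the block from 23531050 to 23934851 held 31 members, of which 2 had no read, 10 were detected and 5 were tested. The block from 21715763 to 22043676 held 24, of which 7 had no read, 3 were detected and 2 were tested. The Hist2 genes on chromosome 3 numbered 10, with 5 without a read and 4 detected. On chromosome 11, 1 of the 3 Hist3 genes was detected, and the single Hist4 gene on chromosome 6, Hist4h4, was not, with 17 reads in all.

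The genes with few or no reads were often those whose sequence is shared with another gene. For each member matched in M21, the share of 50-base windows of its longest transcript that also occur in another gene's transcript was counted. A read from such a window may match more than 1 gene, and how the authors counted such reads is not given in the sources used here. For 18 of 68 members the longest M21 transcript exceeds the gene length in the table. For these the share within the counted part was not taken. Of 33 members with under 50% of windows shared, 3 had no read and 15 were detected. Of 23 members from 50% to under 90%, 2 had no read and 3 were detected. Of 12 members at 90% and over, 8 had no read and 1, Hist1h2bq, was detected. The median shared share was 93.1% over the 13 members without a read and 49.3% over the 55 with one. A low value for a gene at the upper end of this range is therefore uncertain: Hist2h2aa1 and Hist2h2aa2, near-identical H2A genes chosen here after their values were seen, share 100% of windows and had 0 reads. Annotation overlap is within this share, because windows were matched on both strands and also to genes annotated at the same place. Hist2h3b and Hist2h3c1, chosen here after their values were seen, are examples. All windows of Hist2h3b occur in Gm20628, which overlaps it on the opposite strand. Those of Hist2h3c1 all occur in Gm20634, which overlaps it on the same strand. In M21, 25 members overlap another gene, 3 of them tested (Hist1h2ae, Hist1h2al and Hist3h2a, each with an annotated miRNA on the opposite strand), and the strand setting of the count is not given in the sources used here. The identifier of Hist2h2bb, a detected H2B row with 96 reads in all, belongs to the lincRNA Gm42743 in M21.

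**Figure D1:**
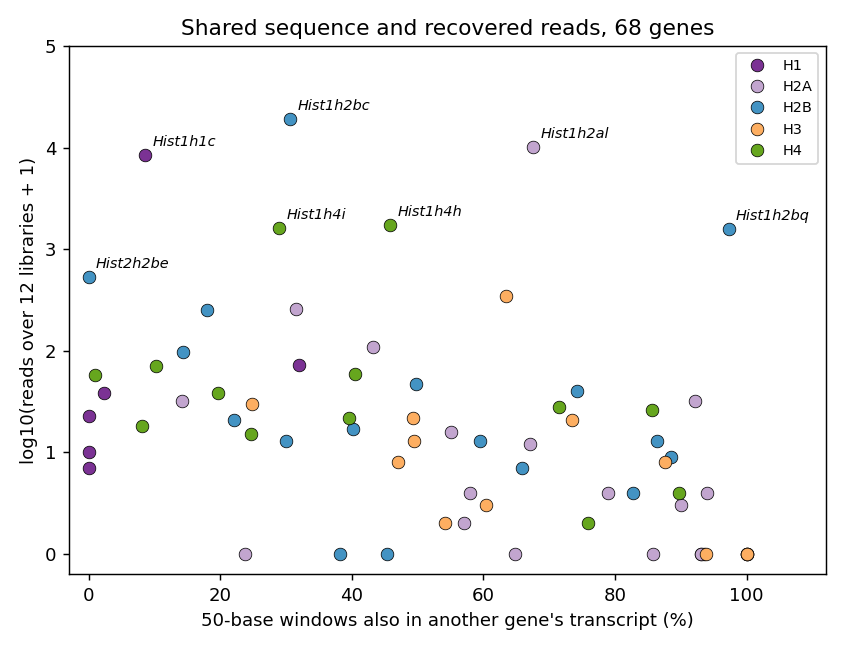
Reads over the 12 libraries, as log10(reads + 1), against the share of 50-base windows that also occur in another gene's transcript, for 68 cluster histone genes coloured by histone family. The 12 genes at 90% and over had 0 to 3 reads except Hist1h2ah with 31 and Hist1h2bq with 1584, while Hist1h2bc and Hist1h1c, at 30.6% and 8.54%, are among the highest.

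Among the detected genes, a few rows held nearly all of the signal. Hist1h2al and Hist1h2bc gave 74.9 to 86.2% of the summed FPKM of the family in 11 libraries and 45.4% in WTVC3. With Hist1h1c, Hist1h4h and Hist1h4i the share came to 89.7 to 96.5% over the 12 libraries. The sum over all 70 members ran from 204.9 FPKM in KOVC1 to 488 in WTVC2. Without Hist1h2al it was 201 to 244 FPKM in KOHF, 113.8 to 173 in KOVC, 132 to 194 in WTHF and 181 to 234 in WTVC. On this sum KOHF lay above KOVC and WTHF in every library and overlapped WTVC. Much of the sum is Hist1h2bc alone, with a mean of 149 FPKM in KOHF against 223 for the sum, so it is not a measure of the family as a whole. With Hist1h2al included, KOHF overlapped WTHF too: KOHF1 was at 297 FPKM and WTHF3 at 309.7.

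**Figure D2:**
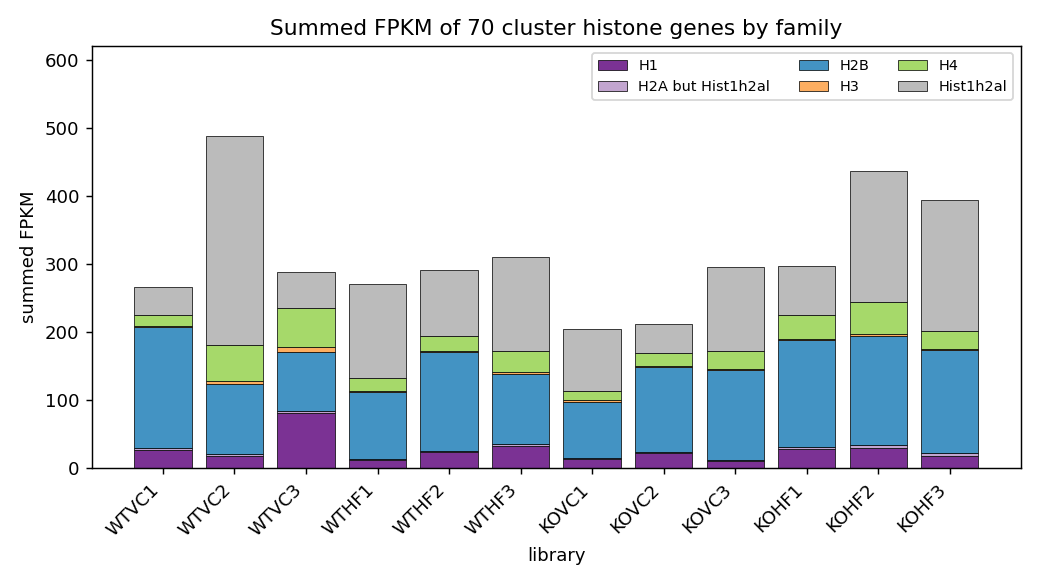
Summed FPKM of the 70 cluster histone genes in each library, stacked by histone family, with Hist1h2al drawn apart from the other H2A genes. H2B, mostly Hist1h2bc, and the Hist1h2al row make up most of every bar but that of WTVC3, where H1 reaches 81.4 FPKM and H4 56.7.

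The row with the highest mean over the 12 libraries, Hist1h2al, lies outside the clusters and is a pseudogene in other annotations. The table gives it as protein-coding (ENSMUSG00000091383, chromosome 13, 51202688 to 51203065, minus strand), outside both chromosome 13 blocks. The same identifier is a processed pseudogene in M21 and the transcribed pseudogene H2af-ps2 in RefSeq. The annotated miRNA on the opposite strand is Gm44341. Of its windows 67.6% occur in another gene, most of them (65.5% of its windows) in Hist2h2aa1. It stood at 40.8, 307 and 52.9 FPKM in WTVC1 to 3, 138, 97.6 and 138 in WTHF1 to 3, 91.1, 42.1 and 123 in KOVC1 to 3, and 71.9, 192.5 and 192.6 in KOHF1 to 3. The highest library was over 2 times the lowest in every group but WTHF, and all 4 groups overlapped. Its mean is raised by WTVC2. By median over the 12 libraries it was below Hist1h2bc, at 110.4 against 121 FPKM, and it had 10149 reads in all against 19067.

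Among H1 genes, Hist1h1c was the only one to pass the filter. It encodes a somatic linker histone (ENSMUSG00000036181, chromosome 13, 23738808 to 23740367, plus strand), and with 8.54% of windows shared its reads are largely its own. It stood at 26.9, 17.5 and 75.6 FPKM in WTVC1 to 3, 11.03, 23.2 and 31.5 in WTHF1 to 3, 12.6, 22.1 and 9.96 in KOVC1 to 3, and 28.2, 29.6 and 17.9 in KOHF1 to 3. WTVC3 was the highest library by more than 2-fold, and the groups overlapped in every pair.

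The H2B genes were led by Hist1h2bc (ENSMUSG00000018102, chromosome 13, 23684199 to 23692488, plus strand) with 905 to 2359 reads in every library. Its levels were 174, 95.1 and 77.4 FPKM in WTVC1 to 3, 91.7, 139 and 94.3 in WTHF1 to 3, 76.2, 119.8 and 123 in KOVC1 to 3, and 151, 151 and 146 in KOHF1 to 3. The KOHF libraries were close to each other, at 149 ± 2.50 FPKM (SD, n = 3), and lay above every WTHF and KOVC library, but WTVC1 was higher still. Hist1h2bq, of the block that starts at 21715763, read 0, 4.93 and 0 FPKM in WTVC1 to 3, 4.19, 2.21 and 4.799 in WTHF1 to 3, 3.88, 2.25 and 6.03 in KOVC1 to 3, and 3.25, 7.48 and 2.56 in KOHF1 to 3. It had 0 reads in WTVC1 and WTVC3 and 82 to 304 in each of the other 10. Because 97.3% of its windows also occur in Hist1h2br, which had 8 reads in all, these values may be those of either gene. Hist2h2be, on chromosome 3, shares no window with another gene and extends to 2620 bases. It stood at 0.747, 0.365 and 2.48 FPKM in WTVC1 to 3, 1.18, 1.33 and 1.39 in WTHF1 to 3, 0.520, 0.752 and 0.462 in KOVC1 to 3, and 0.863, 0.538 and 0.757 in KOHF1 to 3. All 3 WTHF libraries were above all 6 libraries labelled knockout.

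Of the H4 genes, Hist1h4h and Hist1h4i were the highest. Hist1h4h (ENSMUSG00000060981, chromosome 13, 23531050 to 23531522, plus strand) stood at 8.62, 43.2 and 47.8 FPKM in WTVC1 to 3, 8.51, 9.07 and 10.7 in WTHF1 to 3, 3.80, 9.26 and 12.0 in KOVC1 to 3, and 20.5, 20.6 and 11.7 in KOHF1 to 3. The 2 libraries that stand apart, WTVC2 and WTVC3, were the highest of the 12, while WTVC1 was within the range of WTHF. Hist1h4i (ENSMUSG00000060639, chromosome 13, 22040636 to 22041362, minus strand) stood at 4.56, 5.40 and 4.003 FPKM in WTVC1 to 3, 9.996, 9.991 and 17.6 in WTHF1 to 3, 7.84, 7.38 and 12.0 in KOVC1 to 3, and 11.5, 21.9 and 11.1 in KOHF1 to 3. The 3 WTVC libraries were the lowest of the 12 and close to one another, although they differ in tissue markers. Hist1h4d stood at 0.968, 0.405 and 0 FPKM in WTVC1 to 3, 0.665, 0.291 and 0.868 in WTHF1 to 3, 0.788, 0.376 and 1.13 in KOVC1 to 3, and 1.825, 1.99 and 0.432 in KOHF1 to 3. It rested on 69 reads in all, and its groups overlapped.

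The other tested genes were of H2A and H3. Hist1h2ae (ENSMUSG00000069272, chromosome 13, 23570662 to 23571121, minus strand) stood at 0.354, 1.96 and 0.527 FPKM in WTVC1 to 3, 0.227, 0.249 and 0.865 in WTHF1 to 3, 0.808, 0.428 and 0.969 in KOVC1 to 3, and 1.199, 2.835 and 2.71 in KOHF1 to 3. These are 2 to 25 reads per library, with 10, 25 and 22 in KOHF. KOHF lay above WTHF and KOVC in every library, and WTVC2 lay within KOHF. Hist3h2a, an H2A gene of chromosome 11, stood at 0.380, 0.618 and 0.226 FPKM in WTVC1 to 3, 0.682, 0.7995 and 0.901 in WTHF1 to 3, 0.260, 0.505 and 0.237 in KOVC1 to 3, and 0.8225, 0.754 and 0.3695 in KOHF1 to 3. WTHF lay above WTVC and KOVC, but 31.5% of its windows are also in transcripts of the neighbouring gene Trim17. Hist2h3c2, the one H3 gene tested, stood at 0.693, 2.50 and 3.03 FPKM in WTVC1 to 3, 0.666, 1.57 and 1.95 in WTHF1 to 3, 1.46, 0.676 and 1.498 in KOVC1 to 3, and 0.973, 2.71 and 1.22 in KOHF1 to 3. It shares 63.5% of its windows, and all groups overlapped.

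**Figure D3:**
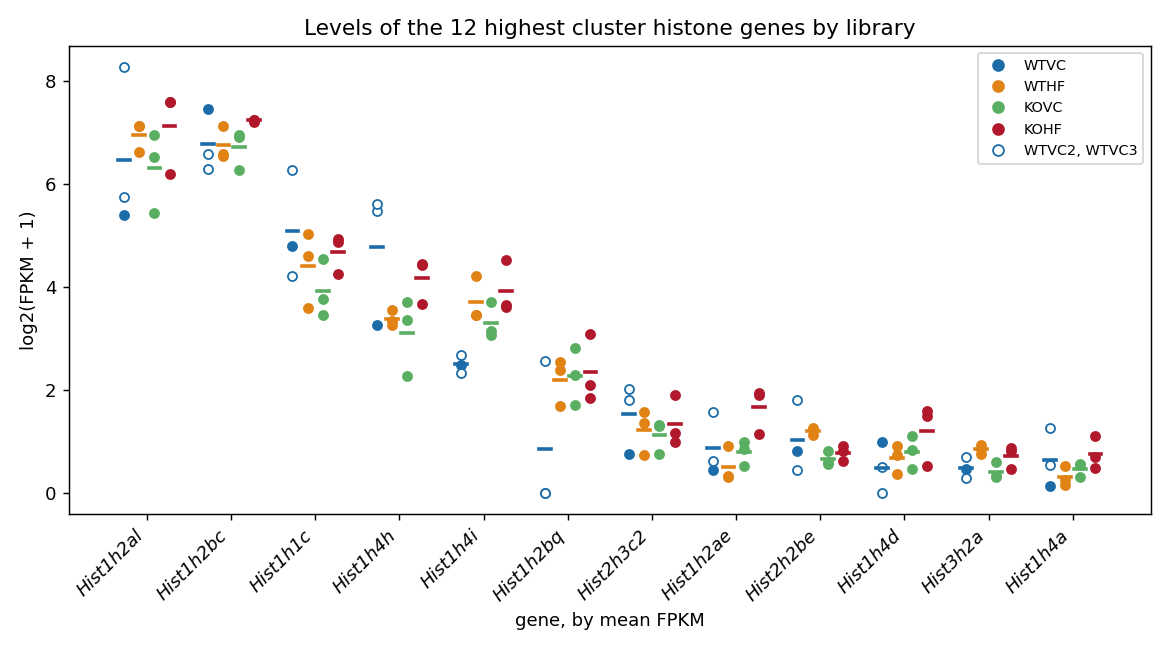
log2(FPKM + 1) of the 12 cluster histone genes with the highest mean FPKM, 1 point per library and a bar at the mean of the 3 libraries of a group, with WTVC2 and WTVC3 as open points. The open points set the spread of WTVC in Hist1h2al and Hist1h4h, while in Hist1h4i the 3 WTVC points lie together between 4.003 and 5.40 FPKM.

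Just under the filter was Hist1h4a, an H4 gene with 58 reads in all, at 0.101, 1.38 and 0.450 FPKM in WTVC1 to 3, 0.194, 0.424 and 0.1055 in WTHF1 to 3, 0.230, 0.457 and 0.4725 in KOVC1 to 3, and 0.614, 0.387 and 1.16 in KOHF1 to 3. Its highest libraries were WTVC2 and KOHF3, from different groups.

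Many of the 59 untested genes were highest in 1 library, WTVC3. Their summed level was 23.4 FPKM there, 9.10 in WTVC2 and 3.47 to 7.20 in the other 10 libraries, from 285 reads in WTVC3 against 61 to 124 elsewhere. Of the 28 untested genes with at least 10 reads in all, 12 had their highest value in WTVC3, 5 in WTVC2 and at most 3 in any other library. The same count was not made over all genes under the filter. Whether this pattern is particular to histone genes is therefore not known. The linker histone genes Hist1h1b, Hist1h1d and Hist1h1e, chosen here after their values were seen, stood at 1.55, 1.71 and 2.51 FPKM in WTVC3. The remaining untested H1 genes, Hist1h1a and Hist1h1t, had 0 reads in that library. In the other 11 libraries Hist1h1b had 3 reads in all, against 19 in WTVC3. The H2B gene Hist1h2bn had 11 of its 12 reads there. WTVC3 is also the library with the brown fat and mitochondrial levels given above. The 20 S phase and replication genes summed to 20.7 FPKM in it, the lowest of the 12 libraries. Pcna and Tk1, the genes of that list with the highest means, stood at 7.99 and 1.05 FPKM in WTVC3 against medians of 12.8 and 11.7. Mki67, Top2a, Ccne1 and Ccna2, chosen here after their values were seen, were above their medians in WTVC3. The rest of the list was below. The part of the brown fat, mitochondrial or S phase levels in the histone values was not tested.

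**Figure D4:**
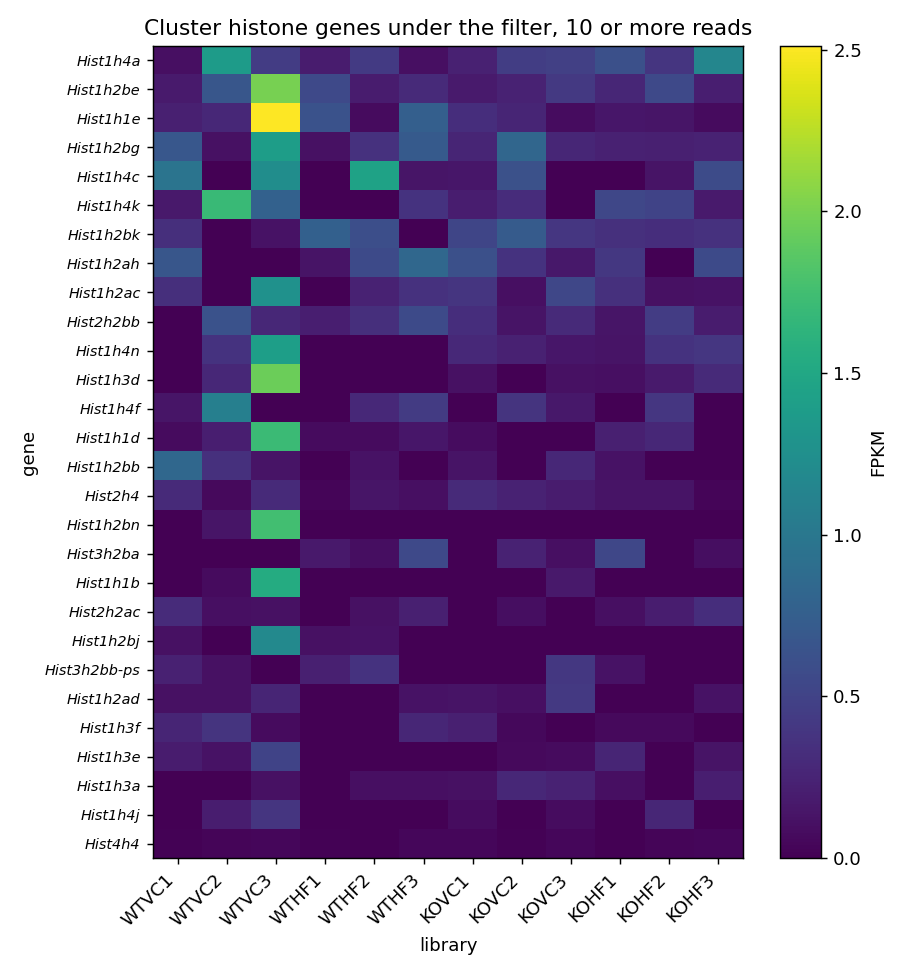
FPKM of the 28 cluster histone genes that were under the filter and had at least 10 reads in all, 1 row per gene and 1 column per library, on a linear colour scale. The column of WTVC3 holds the highest value of 12 of the 28 rows, up to 2.51 FPKM in Hist1h1e.

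Many H2A and H2B genes lie head to head, with their starts close together. There were 14 such pairs of members, with 172 to 305 bases between the starts given in the table. Both genes were detected in 1 pair, 1 gene in 5 pairs and neither in 8. Hist1h2ac and Hist1h2bc, 274 bases apart by those starts, lie around the Hist1h2ac promoter printed above. That promoter was taken from the RefSeq start of Hist1h2ac, 35 bases from its start in the table. The counts were unequal: Hist1h2ac had 31 reads and 0 to 1.27 FPKM, Hist1h2bc 19067 reads and 76.2 to 174 FPKM. The transcript of Hist1h2bc has no match to the stem-loop letters in M21, and its gene in the table spans 8290 bases for a transcript length of 736. Hist2h2ac and Hist2h2be, 238 bases apart, had 15 and 529 reads. In Hist1h2bq and Hist1h2ao, 265 bases apart, the counts were 1584 and 0. The only pair with both detected was Hist1h2ae with 109 reads and Hist1h2bg with 46. Over their longest M21 transcripts, 14.1% of windows of Hist1h2ac and 30.6% of those of Hist1h2bc are shared. These transcripts run to 2482 and 1156 bases, against gene lengths of 476 and 736 in the table. The share within the counted part was not taken, and whether shared reads bear on the unequal counts was not tested.

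Detection also went with how far the annotated transcript runs past the stem-loop. Of the 20 members whose M21 transcript goes on for at least 100 bases after the site, 11 were detected. Of the 20 with a shorter tail, 2 were detected, and of the 28 without a match, 6 were. Tail length was not separated here from gene length or from the share of windows found in other genes, so the part of each was not tested. Among the 11 tested genes, 7 had a site and 6 of these had a tail of at least 100 bases, the exception being Hist1h4h with 46. The table's gene length was shorter than that M21 transcript for 18 of 68 members, longer for 4 and equal for 46. Where it is shorter, as for Hist1h4d (393 against 1138 bases) and Hist1h2ac (476 against 2482), reads in the longer tail may not be in the value.

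Comparing the groups asks whether the diet or the knockout label goes with these genes. Values were tested as log2(FPKM + 1) with limma over 12251 genes, with p-values adjusted over all of them by the Benjamini-Hochberg method and a threshold of 0.05. None of the 11 tested members passed in any of the 5 contrasts with 12 libraries, or in the fit with 10 libraries. The 3 libraries of a group are described as biological replicates. Fold changes on this scale understate those of low genes.

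Between the labelled genotypes on chow (KOVC minus WTVC), 0 of 11 members were called, with 0% of all genes called. At an unadjusted p under 0.05 in limma there were 2 members, Hist1h4h and Hist1h4i. Hist1h4h had a difference of −1.67 (SE 0.58, 95% interval −2.96 to −0.39, limma adjusted p = 0.195) and Hist1h4i one of 0.81 (SE 0.31, 0.13 to 1.498, adjusted p = 0.204). With 10 libraries the 2 differences were −0.16 (adjusted p = 1.0) and 0.83 (adjusted p = 1.0) in limma, with 0.0168% of all genes called. The first therefore rests on WTVC2 and WTVC3, which hold 43.2 and 47.8 FPKM, and the second does not. Hist1h1c differed by −1.17 (SE 0.54, limma adjusted p = 0.242), or −0.59 without WTVC3, and Hist1h2bq by 1.41 (SE 0.64, limma adjusted p = 0.239), or 2.27 in the 10 libraries, where WTVC1 with its 0 reads stands alone. The groups did not overlap for 1 member, Hist1h4i, higher in the knockout label, against 12.4% of all genes that were higher without overlap. Without WTVC1, which leaves the 2 libraries that stand apart as the whole WTVC group, limma called 2 members, Hist1h4h (−2.43, adjusted p = 0.00224) and the H2B gene Hist1h2be, with 24.3% of all genes called. The members' median difference was −0.09 (0.02 after rescaling to TPM), against 0.08 over all genes (0.25 after rescaling). Leaving out each library in turn moved the members' median from −0.43 without WTVC1 to 0.03 without WTVC2.

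Between the labelled genotypes on the high fat diet (KOHF minus WTHF), 0 of 11 members were called, with 0.155% of all genes called. Hist1h2ae was the one member under an unadjusted p of 0.05 in limma, with a difference of 1.15 (SE 0.33, 95% interval 0.42 to 1.88, adjusted p = 1.0, and 0.335 with 10 libraries, where 0 members and 0.202% of all genes were called). With array weights limma called it alone of the 11 (1.45, adjusted p = 0.00276), with 0.269% of all genes called. KOHF was higher without overlap for 3 members (Hist1h2ae, Hist1h2bc and Hist1h4h), against 7.37% of all genes. It was lower without overlap for 1, Hist2h2be, against 12.4%. The differences were 0.48 (SE 0.36) for Hist1h2bc, 0.80 (SE 0.58) for Hist1h4h, 0.53 (SE 0.34) for Hist1h4d and −0.42 (SE 0.29) for Hist2h2be, with a limma adjusted p of 1.0 for each. The members' median was 0.21, against −0.03 over all genes. It rests in part on KOHF2: it was 0.04 without that library, and −0.06 when that library was also left out of the 10. Without WTHF3 it was 0.39, without KOHF3 0.38 and without KOHF1 0.33, and it was 0.63 with array weights and 0.10 after rescaling to TPM. Without KOHF2 the difference of Hist1h4d was 0.34, and without KOHF3 0.87.

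For the diet in wild type (WTHF minus WTVC), 0 of 11 members were called, with 0% of all genes called. Hist1h4i had the lowest p of any member in any contrast of the 12-library fit, with a difference of 1.22 (SE 0.31, 95% interval 0.53 to 1.91, limma unadjusted p = 0.00253, adjusted p = 0.307). It was 1.24 with 10 libraries (limma adjusted p = 1.0, with 0 members and 0.0253% of all genes called). Hist1h4h differed by −1.40 (SE 0.58, limma adjusted p = 0.323) with 12 libraries and by 0.11 with 10, so its direction turns on WTVC2 and WTVC3. Without WTVC1 limma called both Hist1h4h (−2.16, adjusted p = 0.00475) and Hist1h4i (1.21, adjusted p = 0.0391), with 19.9% of all genes called. WTHF was higher without overlap for 2 members, Hist1h4i and Hist3h2a (0.36, SE 0.18, limma adjusted p = 0.372), against 6.82% of all genes. The members' median was 0.18, against 0.02 over all genes. Its sign changed with single libraries: it ran from −0.22 without WTHF2 to 0.18 without KOVC3 when each library was left out in turn, with −0.05 without WTVC1, −0.02 without WTVC2 and −0.06 without WTVC3, and it was 0.32 after rescaling to TPM, 0.02 after quantile normalization and 0.49 with limma-voom on recovered reads.

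For the diet in the labelled knockout (KOHF minus KOVC), which uses no wild type library in its means, 0 of 11 members were called, with 0.155% of all genes called. Of the 11, 2 were higher without overlap, Hist1h2ae and Hist1h2bc, against 9.98% of all genes. Hist1h2ae differed by 0.87 (SE 0.33, limma adjusted p = 0.649), Hist1h2bc by 0.52 (SE 0.36, adjusted p = 0.713) and Hist1h4h by 1.07 (SE 0.58, adjusted p = 0.656). Leaving WTVC2 and WTVC3 out of the fit changed the shared spread and the genes tested, not the differences: the SE became 0.26, 0.22 and 0.34, and the limma adjusted p 0.0604, 0.150 and 0.0751. In that fit 0 of 11 members were called, with 8.65% of all genes called. When KOVC3 was left out as well, limma called Hist1h4h (1.37, adjusted p = 0.0380), with 13.5% of all genes called. When KOVC1 was left out instead, its difference was 0.65 (limma adjusted p = 0.198). With array weights on the 12 libraries limma called 4 members, all higher: Hist1h2ae, Hist1h4h, Hist1h4i and Hist1h2al, with 19.8% of all genes called. Hist1h4i differed by 0.62 (SE 0.31), Hist1h1c by 0.76 (SE 0.54), Hist1h2al by 0.82 (SE 0.73) and Hist2h3c2 by 0.22 (SE 0.37), with limma adjusted p from 0.649 to 0.917. Single libraries moved several of these: Hist1h2al was 0.39 without KOVC2 and 1.29 without KOHF1, Hist1h4i 0.32 without KOHF2, and Hist1h2bc 0.30 without KOVC1. Hist2h3c2 was 0.03 without KOVC2 and turned to −0.05 without KOHF2. The members' median was 0.52, against −0.06 over all genes. KOHF minus WTHF uses the same KOHF libraries, so the 2 medians are not independent. Without KOVC1 the median of KOHF minus KOVC was 0.31, and when KOHF2 was also left out of the 10 libraries 0.32.

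**Figure D5:**
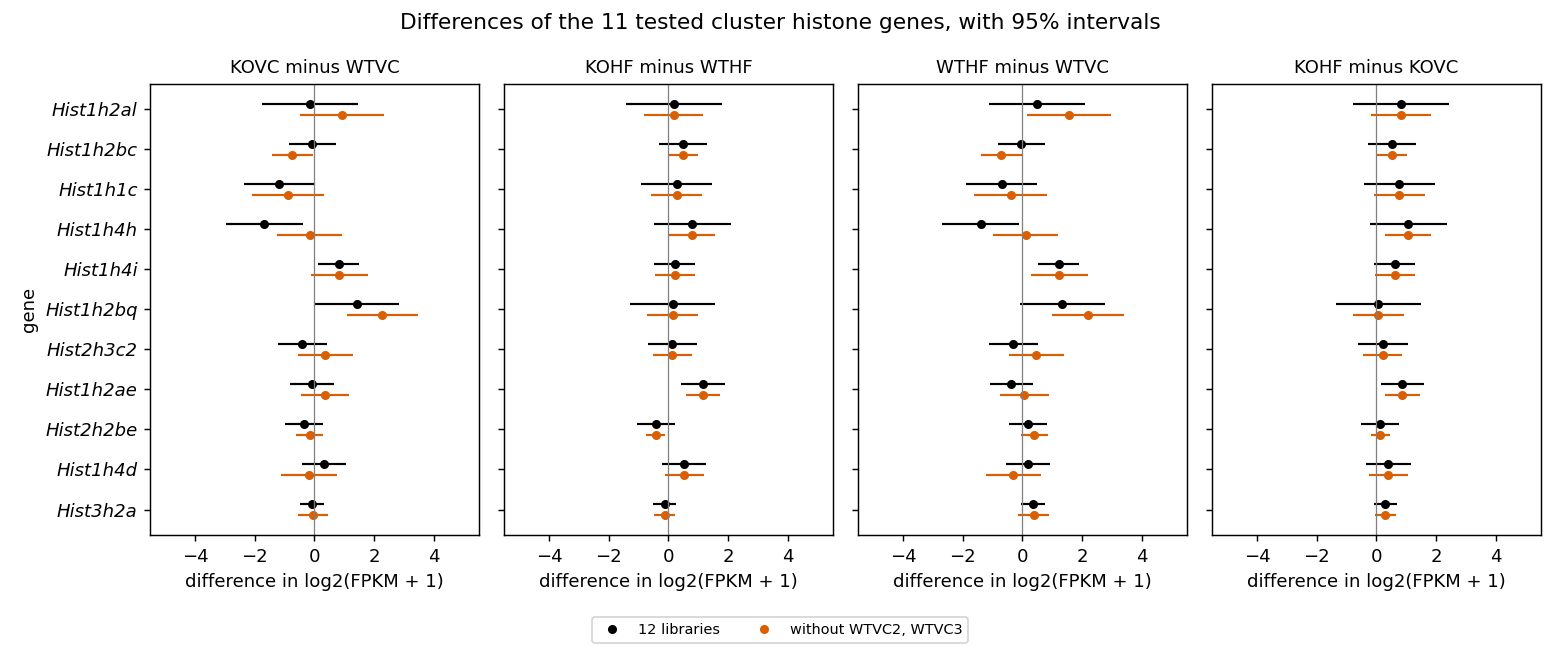
Differences in log2(FPKM + 1), with 95% intervals, of the 11 tested cluster histone genes in 4 comparisons, from limma with 12 libraries (black) and without WTVC2 and WTVC3 (orange). On chow, Hist1h4h moves from −1.67 to −0.16 when those libraries are left out, while Hist1h4i stays at 0.81 and 0.83.

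The KOHF libraries differed from the rest in markers of other tissues as well. The 5 pancreas acinar markers summed to 35.7 to 64.3 FPKM in KOHF, to 4.47 and 1.25 in WTVC1 and WTVC2, and were all at 0 in the other 7 libraries. The 4 heart muscle markers summed to 0.158 to 0.450 FPKM in KOHF and to 4.71 to 28.7 in the other 9, with Myh6 and Myl2 at 0 in all 3 KOHF libraries. The 20 S phase and replication genes summed to 68.5, 65.0 and 36.7 FPKM in KOHF1 to 3, to 34.7 to 51.3 in the WTHF and KOVC libraries, and to 43.4, 71.5 and 20.7 in WTVC1 to 3, with WTVC2 the highest of the 12. The 4 macrophage markers summed to 70.01, 94.2 and 96.9 FPKM in KOHF1 to 3, above every KOVC library (31.4 to 52.9), and to 44.0, 67.8 and 147 in WTHF1 to 3. The hepatocyte sums were 31579 to 45927 FPKM in KOHF, below every WTHF library (54041 to 61642), and 40456 to 41513 in KOVC. Of the hepatocyte markers, only Alb was lower without overlap, at 12811 to 21127 FPKM in KOHF and 29905 to 41503 in WTHF. Apoa1, Ttr, Cps1 and Cyp2e1 each overlapped between KOHF and WTHF. The part of all these levels in the higher Hist1h2ae, Hist1h2bc and Hist1h4h values of KOHF was not tested.

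The diet's difference between the genotype labels (the interaction) was called for 0 of 11 members, with 0.122% of all genes called. Hist1h4h had an estimate of 2.47 (SE 0.82, 95% interval 0.66 to 4.29, limma adjusted p = 0.289). It was 0.96 with 10 libraries (SE 0.59, limma adjusted p = 0.567), with 0 members and 0.0842% of all genes called. Without WTVC1 it was 3.23 (limma adjusted p = 0.00328), the 1 member called, with 18.5% of all genes called. The members' median was 0.34 with 12 libraries and −0.08 with 10, against −0.10 and −0.09 over all genes, so its sign rests on WTVC2 and WTVC3. Without each library in turn it ran from 0.18 without KOHF2 to 0.81 without WTVC1, and it was 0.06 after rescaling to TPM.

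Genes that act with the cluster histones were taken as 4 lists of 55 genes in all, and 0 of them passed in any contrast with 12 libraries. Of 11 replacement and variant histones, 10 were tested. H1f0, a linker histone of cells that do not divide, had the highest mean of the list, 81.1 FPKM, and stood at 73.9 to 106.0 FPKM in the 10 libraries without WTVC2 and WTVC3. H2afj, an H2A variant, followed with a mean of 74.9 FPKM that WTVC2 raises with 247. Its median over the 12 libraries, 60.2 FPKM, was below the 65.2 of H2afz and the 65.5 of H3f3b. H3f3b, which encodes the H3.3 protein, stood at 53.8 to 81.3 FPKM in those 10, against 0.773 to 6.48 FPKM in every library for the 12 H3 genes of the clusters together. In the 10 libraries H2afj was at 82.3 to 97.3 FPKM in KOHF1 and KOHF3 and 68.8 in KOHF2, and at 38.6 to 56.5 in KOVC. It rose in that comparison without WTVC2 and WTVC3 (0.86, SE 0.18, limma adjusted p = 0.0309, with 8.65% of all genes called in that fit). The list's median there was 0.28, against −0.07 over all genes.

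Among the 12 genes of histone transcript activation and 3′ end processing, 11 were tested with 12 libraries and 0 were called in any contrast of either fit. Slbp, whose protein binds the stem-loop, stood at 2.34 to 7.83 FPKM and Npat, the activator of histone gene transcription in S phase, at 0.411 to 1.38 FPKM. Both were named for these roles after their values were seen. The 2 highest of the list were Cpsf3, the nuclease of 3′ end cleavage (mean 17.4 FPKM), and Sympk (14.6 FPKM), a scaffold of that complex. Of the 12 chaperone and assembly genes, 11 were tested, and 1 passed in the 10 libraries. Atrx, a remodeller that places H3.3, fell by 0.90 in KOHF against KOVC (SE 0.20, limma adjusted p = 0.0345, with 8.65% of all genes called in that fit), from 3.08 to 5.71 FPKM in KOVC to 1.27 to 2.28 in KOHF. Rbbp7 and Rbbp4, histone-binding subunits of several complexes, had the highest means, 33.8 and 16.9 FPKM. Of the 20 S phase and replication genes, 18 were tested and 0 were called in either fit. Their median in KOHF against KOVC was 0.38, against −0.06 over all genes, with 17 of 18 above 0. With 10 libraries it was 0.37, against −0.07 over all genes, with 14 of 16 above 0. The share of all genes above 0 was not counted. By the list's summed level KOHF3, at 36.7 FPKM, lay within the KOVC range of 34.7 to 40.6. Pcna, the replication clamp, led the list with a mean of 12.5 FPKM and Tk1, thymidine kinase, followed with 11.3.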

How the data were processed

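The deposited values are FPKM per gene in 1 table, made by the authors. The submitters' processing notes name CASAVA, TopHat, STAR, HTSeq 0.6.1 and DESeq2 with the builds GRCm38 and mm10, without roles, and the handling of strand, of reads matching several genes and of library type is not given in the sources used here. All value columns matched a sample title (0 did not). Within a library, FPKM times gene length moved in equal steps, so dividing by the step gave the reads behind every value (100% were whole to within 0.1).

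Values were taken as log2(FPKM + 1). Genes with a mean of at least 0.5 FPKM were fitted with limma 3.58.1 in R 4.3.3 (empirical Bayes with a trend), with 4 group means over 12 libraries, and 5 contrasts were adjusted over all 12251 genes. The fit was tested on simulated data. The alternatives were the pseudocount, filter, scaling, a replicate block, array weights, limma-voom on recovered reads, and leaving out libraries. Shared windows and stem-loop letters came from GENCODE M21, promoters from RefSeq. Other work used Python 3.11.15, pandas 2.3.3 and matplotlib 3.10.9.

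Tested members could be named. The 12 with the highest mean, any past the threshold and the lowest p per contrast have every value. Untested members were named for the testis group, described pairs, or nearness to the filter, and list genes for passing or for the 2 highest means. Others are said to be chosen after their values were seen. The members and lists were chosen with earlier results of these data known.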

Additional observations from a re-analysis of the deposited data

How the results depend on the processing

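The count of members called was 0 in every contrast with another pseudocount (0.1), no filter, a filter of 2 FPKM, TPM, median-of-ratios, quantile normalization, limma-voom on recovered reads, a replicate block, or the 10 libraries without WTVC2 and WTVC3. Array weights called 1 member in KOHF minus WTHF and 4 in KOHF minus KOVC. Leaving out each library in turn gave 0 to 2 members in KOVC minus WTVC, 0 to 2 in WTHF minus WTVC, 0 to 1 in the interaction and 0 in the others. All of these calls came without WTVC1. The cause was not tested. Without WTVC2, WTVC3 and also KOVC3, a setting added after seeing the data, 1 member was called in KOHF minus KOVC.

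Of the differences given, 2 changed sign: Hist1h4h in WTHF minus WTVC was 0.111 with the 10 libraries, and Hist2h3c2 in KOHF minus KOVC was −0.0547 without KOHF2 and up to 0.401 without each other library in turn. TPM moved the median over all genes to 0.25, −0.13, 0.12, −0.23 and −0.37 in the order of the contrasts above, with the interaction last, from 0.08, −0.03, 0.02, −0.06 and −0.10. The number of members detected was 46 with at least 1 read and 12 with at least 10 reads in 3 libraries, against 19. Same-numbered libraries of different groups did not deviate together (r from −0.504 to 0.131 over 18 pairs, 2 of them over 0.1). With 3 libraries a group, and WTVC2 and WTVC3 standing apart, this cannot exclude that the numbers pair the samples. With a replicate block 0 members were called in every contrast. Depth limits the low genes: Hist1h2ae rests on 109 reads and Hist1h4d on 69, and counting error alone is large there.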
